A study of Mus musculus with 2 samples.

Results

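The intermediate filament genes measured in mouse dorsal root ganglia were the neurofilament triplet Nefl, Nefm and Nefh, the neuronal genes Ina and Prph, and the type III and nestin genes Vim, Des and Nes. They were taken by symbol, and all 8 were found among the 19059 genes of the deposited matrices. The Penk_KO library came from mice of genotype Foxp3 CreER; Penk fl/fl, and the Penk_ctrl library came from littermates of genotype Foxp3 CreER; Penk fl/WT, so both groups carried the inducible Cre and the controls carried 1 floxed Penk allele. All mice received tamoxifen and imiquimod for 3 days, and the ganglia of cervical levels 2 to 7 were fixed in 4% paraformaldehyde. The Cre is driven by Foxp3, the gene that marks regulatory T cells, and not by a gene of neurons or glia. Each group was 1 pooled library, and no source used here states how many mice it holds. The labels call the assay single-cell profiling of fixed samples with paired probes, whereas the series text calls it single-nucleus sequencing. With 1 library per group there was no test between genotypes, and the intervals given are 95% intervals that cover counting error only.

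Intermediate filaments are ropelike polymers of the cytoskeleton whose subunits differ by cell type. In large myelinated sensory axons the light, medium and heavy neurofilament subunits (Nefl, Nefm and Nefh) assemble together and set axon calibre, and the long phosphorylated tails of the heavy subunit space the filaments. Peripherin (Prph) is the filament typical of small unmyelinated sensory neurons, alpha-internexin (Ina) co-assembles with the triplet, vimentin (Vim) belongs to glia, fibroblasts and other mesenchymal cells, desmin (Des) to muscle and mural cells of vessels, and nestin (Nes) to progenitors, Schwann cells and some vessel cells.

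The Penk_KO library held 12067 barcodes and 156441497 UMIs, and the Penk_ctrl library held 15710 barcodes and 259136217 UMIs. Penk, the floxed gene, had 4 UMIs in the Penk_KO library against 582 in the Penk_ctrl library, and Foxp3 had 5 and 10. The libraries shared 4723 droplet barcodes, which is 39.1% of the Penk_KO and 30.1% of the Penk_ctrl barcodes. Clusters were made without the 8 genes and named from marker genes. Neurons numbered 4893 in Penk_KO and 6293 in Penk_ctrl, with median depths of 7996 and 11404 UMIs, and fell into 10 named subtypes. Of the markers of a named class, between 4 of 10 (A-beta LTMR-like, Penk_KO) and 11 of 11 (myelinating Schwann-like, both libraries) were at least 2-fold above the median of the other classes. LTMR stands for low-threshold mechanoreceptor. The 6 classes compared outside the neurons were satellite glia-like, myelinating Schwann-like, fibroblast-like, endothelial-like, mural-like and macrophage-like cells, and the meningeal-like cluster was too small to compare (42 Penk_KO and 48 Penk_ctrl cells).

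Nefl and Nefm are neighbours on mouse chromosome 14 (GRCm39), on opposite strands, and the annotated span of Nefm (chr14:68320039-68362305, minus strand) covers the Nefl gene (chr14:68321268-68326544, plus strand). No source used here states where the probes lie. Nefh lies at chr11:4888740-4898130 on the minus strand, and Prph at chr15:98952872-98956862 on the plus strand. The 250 bases before the transcript starts of Nefl, Nefh and Prph are shown because the results turn on these genes: Nefl and Nefh were high in the same myelinated subtypes, and Prph varied against Nefh. Windows are chr14:68321018-68321267 (plus) for Nefl, chr11:4898131-4898380 (minus) for Nefh and chr15:98952622-98952871 (plus) for Prph, all in GRCm39. Capitals mark a TATA box (TATAAA), a GC box (GGGCGG), a cyclic AMP response element (TGACGTCA) or a CCAAT box (CCAAT) on either strand.
Nefl: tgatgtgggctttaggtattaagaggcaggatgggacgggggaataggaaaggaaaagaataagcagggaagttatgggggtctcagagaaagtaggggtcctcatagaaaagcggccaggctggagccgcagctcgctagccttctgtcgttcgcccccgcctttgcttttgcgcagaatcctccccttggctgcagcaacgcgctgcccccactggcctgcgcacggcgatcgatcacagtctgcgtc
Nefh: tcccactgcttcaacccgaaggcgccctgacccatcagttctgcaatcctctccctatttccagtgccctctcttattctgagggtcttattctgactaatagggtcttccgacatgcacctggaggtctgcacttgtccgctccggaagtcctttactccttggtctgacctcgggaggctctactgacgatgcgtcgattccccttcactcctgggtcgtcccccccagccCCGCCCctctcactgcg
Prph: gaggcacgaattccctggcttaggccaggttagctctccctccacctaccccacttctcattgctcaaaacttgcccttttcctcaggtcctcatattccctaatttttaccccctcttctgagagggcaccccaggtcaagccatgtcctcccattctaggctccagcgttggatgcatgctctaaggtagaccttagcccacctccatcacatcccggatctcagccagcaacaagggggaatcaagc
The Nefh window holds a GC box, on the other strand, starting 17 bases before the transcript start. None of these letters occur in the Nefl and Prph windows. Over the windows of 21770 genes, 11.9% hold TATAAA, 36.3% a GC box, 36.5% CCAAT and 1.69% the cyclic AMP response element. The windows of Nefl, Nefh and Prph are 58, 58 and 54 percent G and C, and these matches describe the sequence only.

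The triplet genes were highest in the myelinated mechanosensory subtypes and lowest in unmyelinated ones. Levels are UMIs summed over the cells of a class in counts per 1000000 UMIs of that class (CPM), and they are compared for 1 gene across classes, since no source used here states the number of probe pairs per gene. Nefl, the light subunit on which the others assemble, reached 12370 CPM in A-beta LTMR-like neurons of Penk_KO and 12785 CPM in those of Penk_ctrl. Proprioceptor-like neurons followed at 10496 and 10154 CPM, then peptidergic A-fibre-like neurons at 5839.8 and 5422 CPM, and A-delta LTMR-like neurons at 4259 and 3903 CPM. Among the remaining subtypes Trpm8 cold-like neurons, which carry the cold channel, were highest with 3551 CPM in Penk_KO and 3369.6 CPM in Penk_ctrl. Mrgprd nonpeptidergic-like, Mrgpra3 and Mrgprb4 pruriceptor-like, C-LTMR-like and peptidergic C-fibre-like neurons lay between 1642 and 2735 CPM in Penk_KO and between 1474 and 2544 CPM in Penk_ctrl. The Sst and Nppb pruriceptor-like neurons, an itch subtype, had the lowest Nefl, 835 CPM in Penk_KO and 828 CPM in Penk_ctrl, so that the span between subtypes was 14.8-fold and 15.4-fold. The Penk_ctrl span was 24.8-fold without the highest doublet scores and 9.996-fold with cells thinned to 500 UMIs, between the same subtypes. No 2 neighbours in the Nefl order had overlapping counting intervals in either library.

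Nefm and Nefh followed the same broad order with wider spans. Nefm, the medium subunit, was highest in A-beta LTMR-like neurons (7374 CPM in Penk_KO, 7442 CPM in Penk_ctrl) and lowest in Sst and Nppb pruriceptor-like neurons (393 and 432 CPM), a span of 18.8-fold and 17.2-fold. Without the highest doublet scores the Penk_ctrl span was 31.6-fold, and with each cell weighted equally 11.8-fold. Nefh, the heavy subunit, was instead highest in proprioceptor-like neurons, with 7855 CPM in Penk_KO and 8347 CPM in Penk_ctrl, above the A-beta LTMR-like neurons at 6521 and 7016 CPM. The lowest Nefh was in C-LTMR-like neurons, the unmyelinated touch neurons, with 335 CPM in Penk_KO and 305 CPM in Penk_ctrl, a span of 23.4-fold and 27.3-fold. With cells thinned to 500 UMIs the spans were 15.95-fold and 15.2-fold and the lowest subtype was the Mrgpra3 and Mrgprb4 pruriceptor-like one in Penk_KO and the Mrgprd nonpeptidergic-like one in Penk_ctrl, and without the highest doublet scores the Penk_ctrl span was 38.5-fold. In the Penk_ctrl order, peptidergic C-fibre-like, Mrgprd nonpeptidergic-like, Sst and Nppb pruriceptor-like and Mrgpra3 and Mrgprb4 pruriceptor-like neurons stood between 403 and 445 CPM of Nefh, and each neighbouring pair overlapped in its interval. For Nefl, Nefm, Nefh and Prph all 10 subtypes held the same rank in Penk_KO as in Penk_ctrl, for Ina 6 did and for Vim 3.

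**Figure D1:**
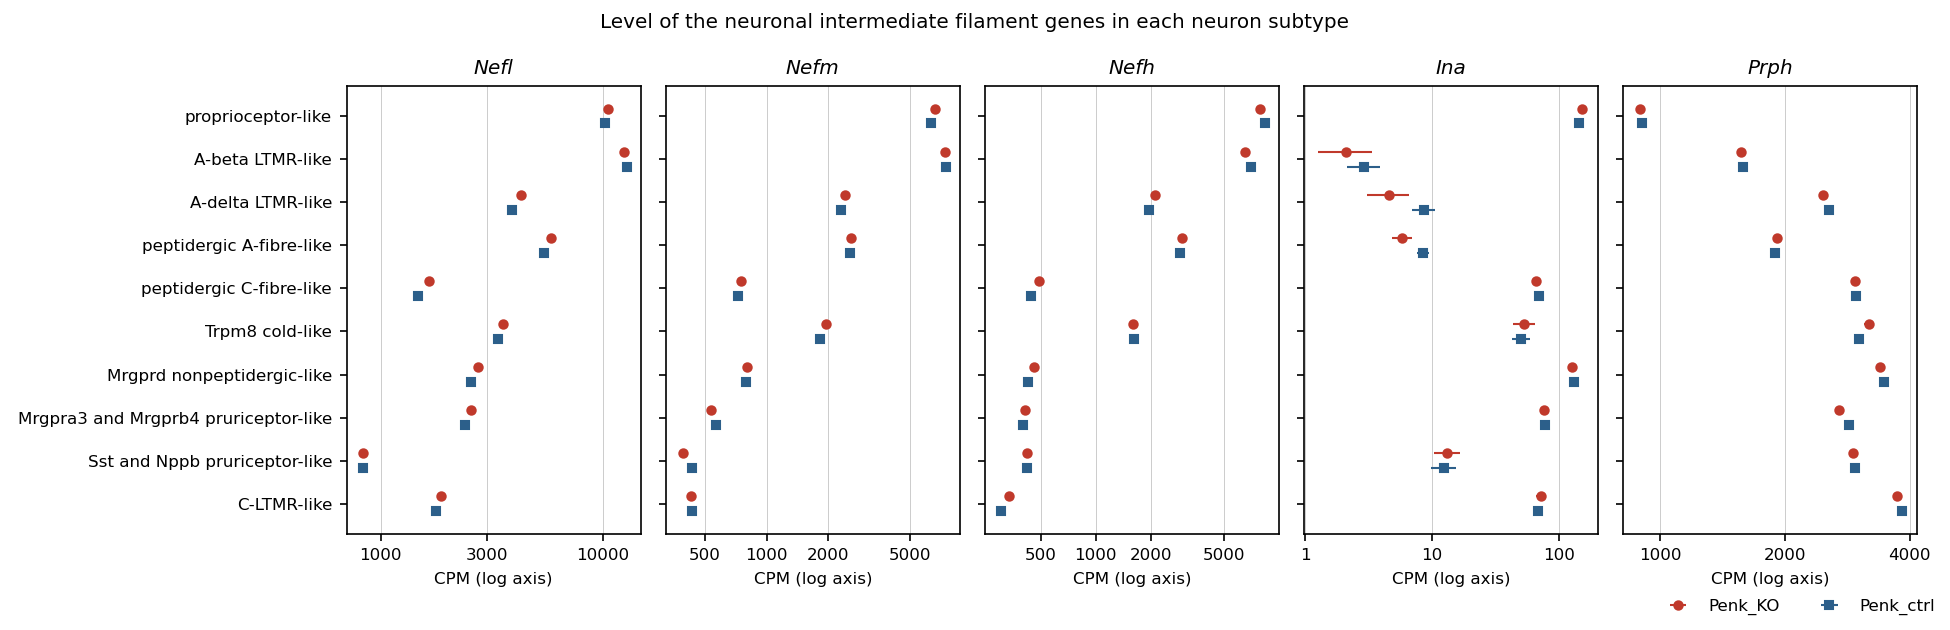
Level of Nefl, Nefm, Nefh, Ina and Prph in CPM (log axis) in the 10 neuron subtypes, with Penk_KO as circles and Penk_ctrl as squares and bars for 95% counting intervals. The triplet genes sit highest in proprioceptor-like and A-beta LTMR-like neurons, Prph sits lowest there (892 and 904 CPM in proprioceptor-like neurons), and Ina is lowest in A-beta LTMR-like neurons (2.12 and 2.92 CPM).

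The plot of levels by subtype has to be read beside the neuronal RNA found in cells that are not neurons. A panel of 10 general neuron markers, such as Rbfox3 and Snap25, reached 46.5% to 72.5% of its neuronal level in the 6 outside classes of Penk_KO and 47.8% to 73.5% in those of Penk_ctrl. Nefl stood at 54.6% to 98.5% of its neuronal level there in Penk_KO and at 48.2% to 93.3% in Penk_ctrl, with the highest value in myelinating Schwann-like cells in both libraries. In those cells Nefm stood at 110.9% and 103.8% of its neuronal level and Nefh at 100.9% and 94.8%. Prph stood at 56.1% and 59.2% there, and Ina at 58.4% and 45.1%. With every cell thinned to 500 UMIs, 76.5% of Penk_KO neurons and 76.4% of Penk_ctrl neurons had a Nefl UMI, against 58.3% and 61.5% of macrophage-like cells, and the unthinned shares were 98.1% and 98.4% in neurons and 75.04% and 78.4% in macrophage-like cells. Thinned shares for Nefh were 49.6% and 50.5% in neurons, 37.2% and 42.0% in macrophage-like cells and 13.6% and 18.2% in C-LTMR-like neurons. Set against the higher of the macrophage-like and endothelial-like shares, Prph was above it in 10 of 10 subtypes in both libraries, and Nefl in 8 in Penk_KO and 7 in Penk_ctrl. Nefm was above it in 5 and 5 subtypes, and Nefh in 5 and 4. Those at or below it were the peptidergic C-fibre-like, Mrgprd nonpeptidergic-like, C-LTMR-like and both pruriceptor-like subtypes, and for Nefh in Penk_ctrl also the Trpm8 cold-like one. Ina was above it in 6 of 10 subtypes in both libraries, and at or below it in A-beta LTMR-like, A-delta LTMR-like, peptidergic A-fibre-like and Sst and Nppb pruriceptor-like neurons. Where a gene was at or below it in a subtype, this share cannot tell expression from background, since the outside classes themselves hold much neuronal RNA. Absence of expression is not shown by it either. The order and spans given among such subtypes carry this limit, gene by gene. Being above the reference does not clear a subtype of background either, since myelinating Schwann-like cells were not part of it. Their thinned Prph share was 38.8% and 38.5%, above the 34.3% and 33.7% of proprioceptor-like neurons. In CPM, Prph in proprioceptor-like neurons (892 and 904) was below that in endothelial-like (1051 and 1168) and macrophage-like cells (1011 and 1115).

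The make-up of the triplet moved across the neuron subtypes and hardly at all across the other classes. Nefh gave 31.5% of the triplet UMIs in proprioceptor-like neurons of Penk_KO (31.4% to 31.7%) and 33.6% in those of Penk_ctrl (33.5% to 33.7%). It gave 11.5% (11.3% to 11.7%) and 11.4% (11.2% to 11.5%) in Mrgprd nonpeptidergic-like neurons, the nonpeptidergic nociceptors. C-LTMR-like neurons (12.7% and 12.1%) and Mrgpra3 and Mrgprb4 pruriceptor-like neurons (11.9% and 12.0%) were close to them, and the peptidergic C-fibre-like neurons had 17.0% and 16.8%. In those same 3 low classes Nefl made up the larger part, up to 72.7% and 71.1% in Mrgpra3 and Mrgprb4 pruriceptor-like neurons, against 42.1% and 40.9% in proprioceptor-like neurons. Sst and Nppb pruriceptor-like neurons differed from those subtypes, with a Nefh share of 25.6% (24.7% to 26.5%) in Penk_KO and 25.1% (24.3% to 25.9%) in Penk_ctrl at the lowest total level. Across the 6 classes outside the neurons the Nefh share kept to 25.3% to 27.5% in Penk_KO and 25.1% to 27.6% in Penk_ctrl, and the Nefl share to 47.1% to 48.1% and 46.0% to 48.3%. Over all neurons the Nefh share was 25.6% and 27.2%, so the triplet of the outside classes had about the make-up of the pooled neurons. The Sst and Nppb pruriceptor-like share lay within or next to that outside range. In this subtype Nefl, Nefm and Nefh were each at or below the larger of the macrophage-like and endothelial-like shares of cells with a UMI. Their expression there cannot be told from background by that measure. In Mrgprd nonpeptidergic-like, Mrgpra3 and Mrgprb4 pruriceptor-like, C-LTMR-like and peptidergic C-fibre-like neurons, Nefm and Nefh were also at or below that reference in both libraries. So was Nefl in peptidergic C-fibre-like neurons, and in C-LTMR-like neurons of Penk_ctrl. The low Nefh shares of these subtypes carry the same limit.

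**Figure D2:**
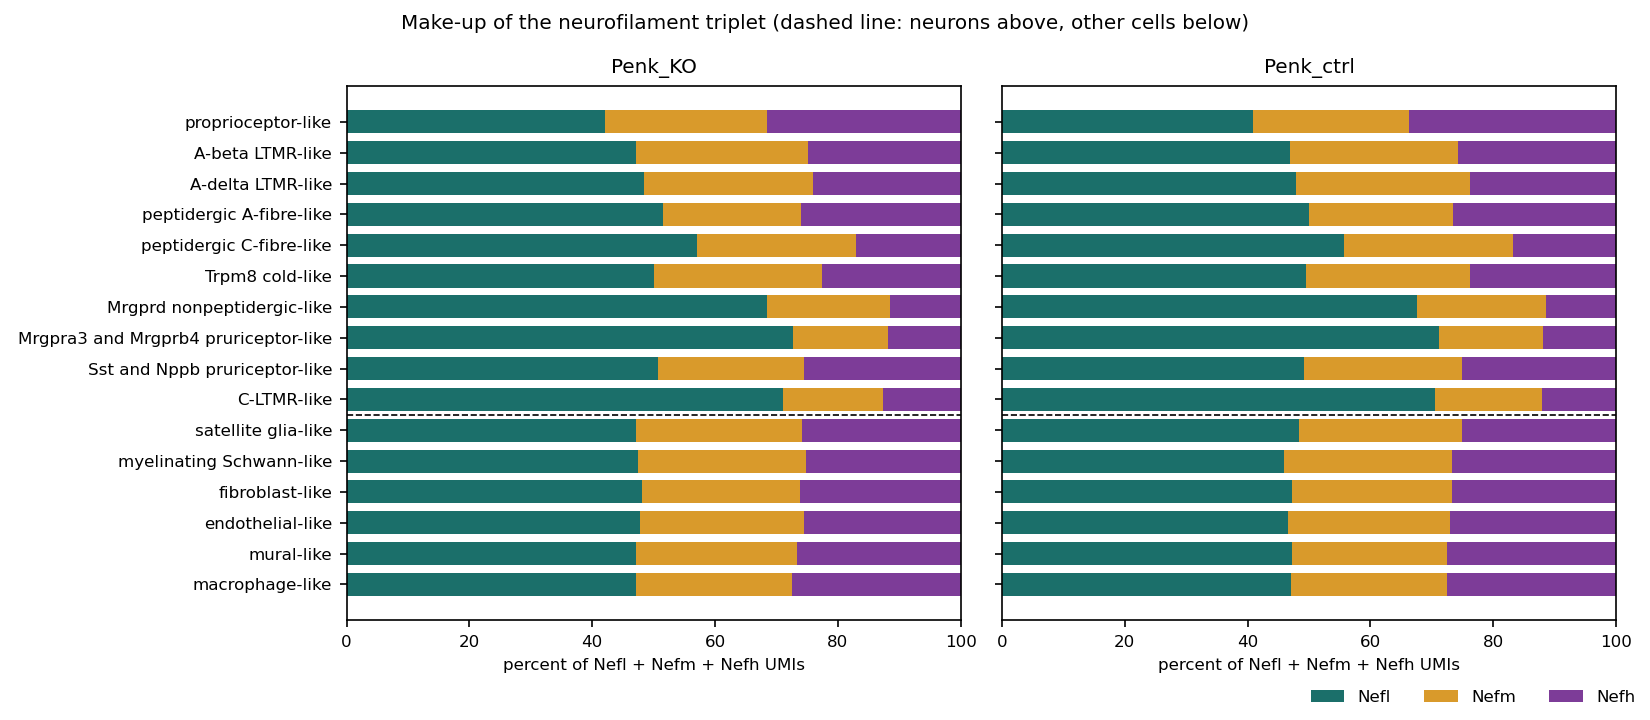
Share of Nefl, Nefm and Nefh in their summed UMIs (percent) in each neuron subtype, above the dashed line, and in the 6 outside classes, below it, with Penk_KO on the left and Penk_ctrl on the right. The Nefh part spans 11.5% to 31.5% over the Penk_KO subtypes and 11.4% to 33.6% over the Penk_ctrl subtypes, and the bars below the line are nearly alike.

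Ina crossed the division between myelinated and unmyelinated subtypes. It was highest in proprioceptor-like neurons, with 153 CPM (147 to 159) in Penk_KO and 143 CPM (139 to 147) in Penk_ctrl, and next in Mrgprd nonpeptidergic-like neurons with 125 and 132 CPM. The A-beta LTMR-like neurons, which share high Nefl and Nefm with the proprioceptor-like ones, had the lowest Ina, 2.12 CPM from 18 UMIs in Penk_KO and 2.92 CPM from 47 UMIs in Penk_ctrl. A-delta LTMR-like neurons (4.57 and 8.65 CPM) and peptidergic A-fibre-like neurons (5.85 and 8.52 CPM) were also low, below the 13.2 and 12.4 CPM of Sst and Nppb pruriceptor-like neurons. The span from highest to lowest was 72.2-fold in Penk_KO and 48.9-fold in Penk_ctrl. With each cell weighted equally it was 32.5-fold and 32.6-fold, and the lowest subtype in Penk_KO was then the A-delta LTMR-like one. Mrgprd nonpeptidergic-like neurons held 32.8% of all Ina UMIs of the Penk_KO library and 31.7% of those of the Penk_ctrl library, and proprioceptor-like neurons held 22.2% and 22.9%.

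The Ina signal of the proprioceptor-like neurons was uneven among the 4 clusters that made up the subtype. A cluster led by Pvalb, Clec2l and Slc17a7 (155 Penk_KO and 213 Penk_ctrl cells, median depths of 10589 and 11165 UMIs) had 422 and 396 CPM of Ina with the lowest Nefl of the subtype, 5299.9 and 4657 CPM. The cluster led by Pvalb, Spp1 and Clec2l (186 and 291 cells) had 43.1 and 40.6 CPM of Ina, and its Nefh of 10473 and 10596 CPM was the highest of any cluster. A cluster led by Tafa2, Pvalb and Asic3 (104 and 110 cells) had 6.92 and 10.9 CPM of Ina beside 14400 and 12034 CPM of Nefl. The remaining cluster was shallow, with median depths of 1811 and 2332.5 UMIs, and had 149.98 and 201 CPM of Ina. In single proprioceptor-like neurons with at least 5000 UMIs, Spearman's rank correlation between Nefl and Ina was -0.67 over 352 neurons of Penk_KO and -0.62 over 546 neurons of Penk_ctrl, as a description of neurons that share a library. Over the other 9 subtypes this correlation lay between -0.16 and 0.29 in Penk_KO and between -0.10 and 0.29 in Penk_ctrl. In proprioceptor-like neurons it pools the 4 clusters, which differ in both genes, and no value within a cluster is given.

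Levels also differed between the 2 clusters of the Mrgpra3 and Mrgprb4 pruriceptor-like neurons, which respond to itch-inducing compounds and to gentle touch. The cluster led by Mrgprx1, Crip1 and Dnase1l3 (115 and 154 cells) had 219 and 252 CPM of Nefh, against 533 and 532 CPM in the cluster led by Mrgprb4 and Rgs5 (137 and 163 cells). In this subtype the thinned share of neurons with a Nefh UMI was no higher than the larger of the macrophage-like and endothelial-like shares. Ina (98.2 and 103 CPM against 62.9 and 55.4 CPM), Prph (3367 and 3318 CPM against 2301 and 2456 CPM) and Vim (280 and 270 CPM against 88.7 and 88.1 CPM) were all higher in the Mrgprx1-led cluster, in both libraries.

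Prph, the filament of small-diameter neurons, ran the other way from the triplet, with a much narrower span of 4.18-fold in Penk_KO and 4.24-fold in Penk_ctrl. It was highest in C-LTMR-like neurons, at 3729.9 CPM (3687 to 3773) in Penk_KO and 3833 CPM (3796 to 3871) in Penk_ctrl. Mrgprd nonpeptidergic-like neurons (3382 and 3474 CPM) and Trpm8 cold-like neurons (3182 and 3009 CPM) came next. Peptidergic C-fibre-like and Sst and Nppb pruriceptor-like neurons did not differ beyond their intervals, with 2954 against 2911 CPM in Penk_KO and 2973 against 2950.2 CPM in Penk_ctrl. A-beta LTMR-like neurons had 1567 and 1583 CPM, and proprioceptor-like neurons 892 and 904 CPM. Within a subtype Prph CPM was higher in the deepest tertile of neurons than in the shallowest in 10 of 10 subtypes in both libraries, by a median of 1.21-fold and 1.14-fold, whereas Vim was higher there in 1 and 2 of 10 with medians of 0.511 and 0.559.

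The balance of Prph and Nefh within single neurons was graded over the subtypes. The share of Prph in the sum of the UMIs of both genes was taken in the 3202 Penk_KO and 4491 Penk_ctrl neurons with at least 20 such UMIs. Its median was 9.51% in proprioceptor-like neurons of Penk_KO and 9.76% in those of Penk_ctrl, and 17.4% and 18.4% in A-beta LTMR-like neurons. Peptidergic A-fibre-like neurons, the fast nociceptors, stood between the ends with 39.3% and 42.6%, and A-delta LTMR-like neurons, the lightly myelinated touch neurons, with 52.0% and 56.3%. Trpm8 cold-like neurons followed at 74.5% and 76.1%. The other 5 subtypes had medians between 87.9% (Mrgpra3 and Mrgprb4 pruriceptor-like) and 92.4% in Penk_KO and between 89.8% and 92.7% in Penk_ctrl, apart from C-LTMR-like neurons, where 92.2% of Penk_KO and 95.5% of Penk_ctrl neurons had a share above 80%. Of all neurons counted, 21.8% of Penk_KO and 20.9% of Penk_ctrl neurons had a Prph share under 20%, 34.8% and 38.1% lay between 20% and 80%, and 43.4% and 41.0% lay above 80%. A-delta LTMR-like neurons fell almost wholly into the middle range, 99.2% in Penk_KO and 99.5% in Penk_ctrl. The level of each share depends on the probes of both genes, so only its differences between subtypes are read. In the 5 subtypes with medians above 80%, Nefh was at or below the background reference, so the high end carries that limit. At the low end, Prph CPM of proprioceptor-like neurons was below that of macrophage-like and endothelial-like cells. The minimum of 20 UMIs kept 343 of 694 peptidergic C-fibre-like and 244 of 275 A-beta LTMR-like neurons of Penk_KO.

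**Figure D3:**
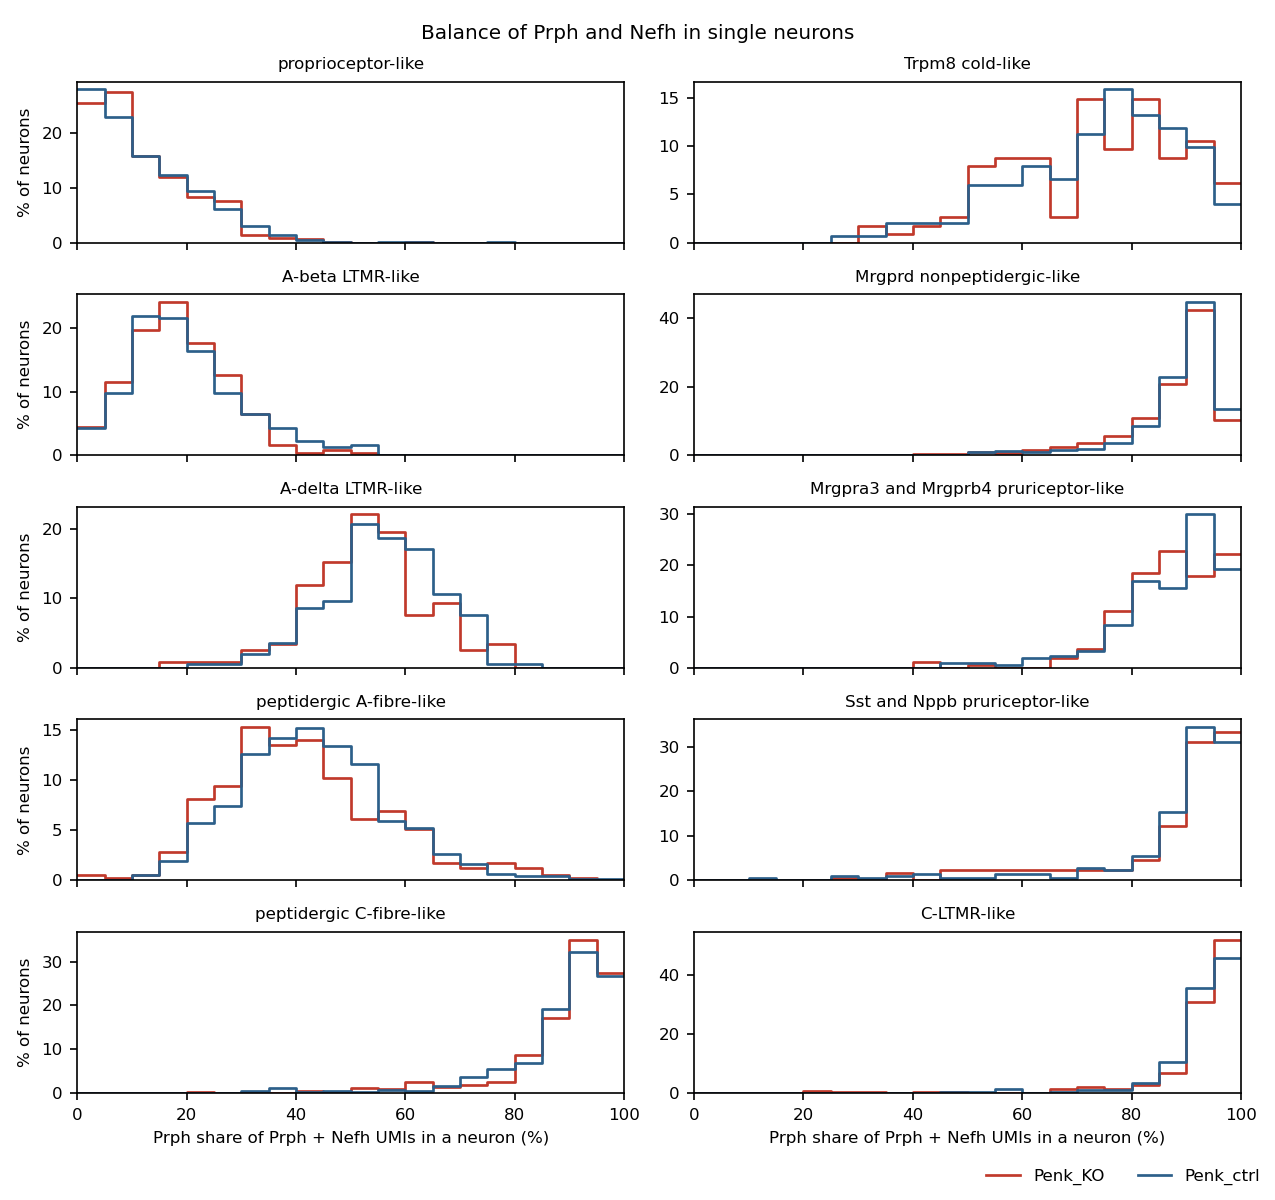
Distribution over single neurons of the share of Prph in Prph plus Nefh UMIs (horizontal axis, percent, bins of 5%), as the percent of the neurons of that subtype and library, for 10 subtypes, with Penk_KO in red and Penk_ctrl in blue. The peak moves in steps from under 20% in proprioceptor-like and A-beta LTMR-like neurons, through the middle in A-delta LTMR-like and peptidergic A-fibre-like neurons, to over 80% in C-LTMR-like neurons, at the same place in both libraries.

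Within subtypes the light and medium subunits varied together in single neurons. Among neurons with at least 5000 UMIs, the rank correlation of Nefl and Nefm was positive in 10 of 10 subtypes, from 0.43 (C-LTMR-like) to 0.94 (proprioceptor-like) in Penk_KO and from 0.42 to 0.93 in Penk_ctrl. That of Nefl and Nefh ran from -0.21 to 0.81 in Penk_KO and from 0.15 to 0.86 in Penk_ctrl, lowest in Mrgpra3 and Mrgprb4 pruriceptor-like neurons in both libraries. That of Nefm and Nefh ran from -0.05 to 0.78 in Penk_KO and from 0.23 to 0.82 in Penk_ctrl, and it was above that of Nefl and Nefm in C-LTMR-like neurons of both libraries (0.49 and 0.47) and in A-delta LTMR-like neurons of Penk_ctrl (0.56 against 0.53). That of Nefh and Prph was lowest in proprioceptor-like neurons, at -0.50 and -0.54, and highest in C-LTMR-like neurons, at 0.03 and 0.05. These values come from 112 to 671 neurons per subtype in Penk_KO and 148 to 895 in Penk_ctrl, whose CPM values share a total and a depth.

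Vim was the filament gene of the glia and stroma. Satellite glia-like cells, which wrap neuron cell bodies, had 4982 CPM in Penk_KO and 4081 CPM in Penk_ctrl. Fibroblast-like cells had 2876 and 1667 CPM, endothelial-like cells 2198 and 2121 CPM, macrophage-like cells 2182 and 1587 CPM, and myelinating Schwann-like cells 2022 and 1771 CPM. Mural-like cells were lowest, with 1137 CPM in Penk_KO and 971 CPM in Penk_ctrl. An unnamed cluster led by the glial genes Fabp7, Apoe and Bcan (904 and 1300 cells) had 4134 and 3238 CPM and held 46.3% and 46.6% of all Vim UMIs of the libraries. Neurons had 333 and 342 CPM, and the 10 named subtypes ran from 695 and 789 CPM in peptidergic C-fibre-like neurons down to 86.6 and 90.0004 CPM in A-beta LTMR-like neurons. Of the unnamed neuron clusters, the one led by Pvalb, Apoe and Slc17a7 lay above that range with 1167 and 869 CPM, and the one led by Pcp4l1, S100a16 and Pcp4 had 78.4 and 106 CPM. In the named subtypes the 10 satellite glia markers stood at 6.49% and 6.73% of their satellite glia-like level in the peptidergic C-fibre-like subtype, where Vim stood at 13.9% and 19.3% of its own, and at 2.53% and 2.61% in the A-beta LTMR-like subtype, where Vim stood at 1.74% and 2.21%. Whether Vim in neurons comes from attached glia was not tested.

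Nes and Des had few UMIs and were highest in Schwann-like and vessel classes. Nes was highest in myelinating Schwann-like cells, 111 CPM (101.03 to 121) from 488 UMIs in Penk_KO and 103 CPM (96.1 to 110.2) from 832 UMIs in Penk_ctrl, followed by endothelial-like cells with 66.1 and 75.4 CPM. Mural-like cells had 65.0 and 72.4 CPM from 8 and 19 UMIs, and satellite glia-like cells 38.4 and 36.3 CPM. Neurons had 2.63 and 2.78 CPM of Nes. The unnamed cluster led by Fabp7, Apoe and Bcan had 45.9 and 40.3 CPM and held the most Nes UMIs, 36.7% and 38.8% of all. Myelinating Schwann-like cells held 24.2% and 26.1%. In macrophage-like cells, which should lack Nes, 43 UMIs gave 37.4 CPM (27.1 to 50.4) in Penk_KO and 14 UMIs gave 11.5 CPM (6.30 to 19.3) in Penk_ctrl, close to the satellite glia-like level in Penk_KO. Des was highest in mural-like cells, the contractile cells of vessels, with 122 CPM (68.2 to 201) from 15 UMIs in Penk_KO and 79.98 CPM (49.5 to 122) from 21 UMIs in Penk_ctrl. Endothelial-like cells had 37.6 and 36.3 CPM from 149 and 178 UMIs, which was 48.4% and 36.9% of all Des UMIs. The mural markers stood at 1887 and 1624 CPM in this class, against 9134 and 7465 CPM in mural-like cells. In the other compared classes outside the neurons they lay between 93.9 and 278 CPM. The part of mural RNA in the Des of endothelial-like cells was not tested. Macrophage-like cells had 0 and 2 Des UMIs, which allows up to 2.61 CPM in Penk_KO by the limit of 3 counts, and neurons had 0.658 and 0.745 CPM.

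**Figure D4:**
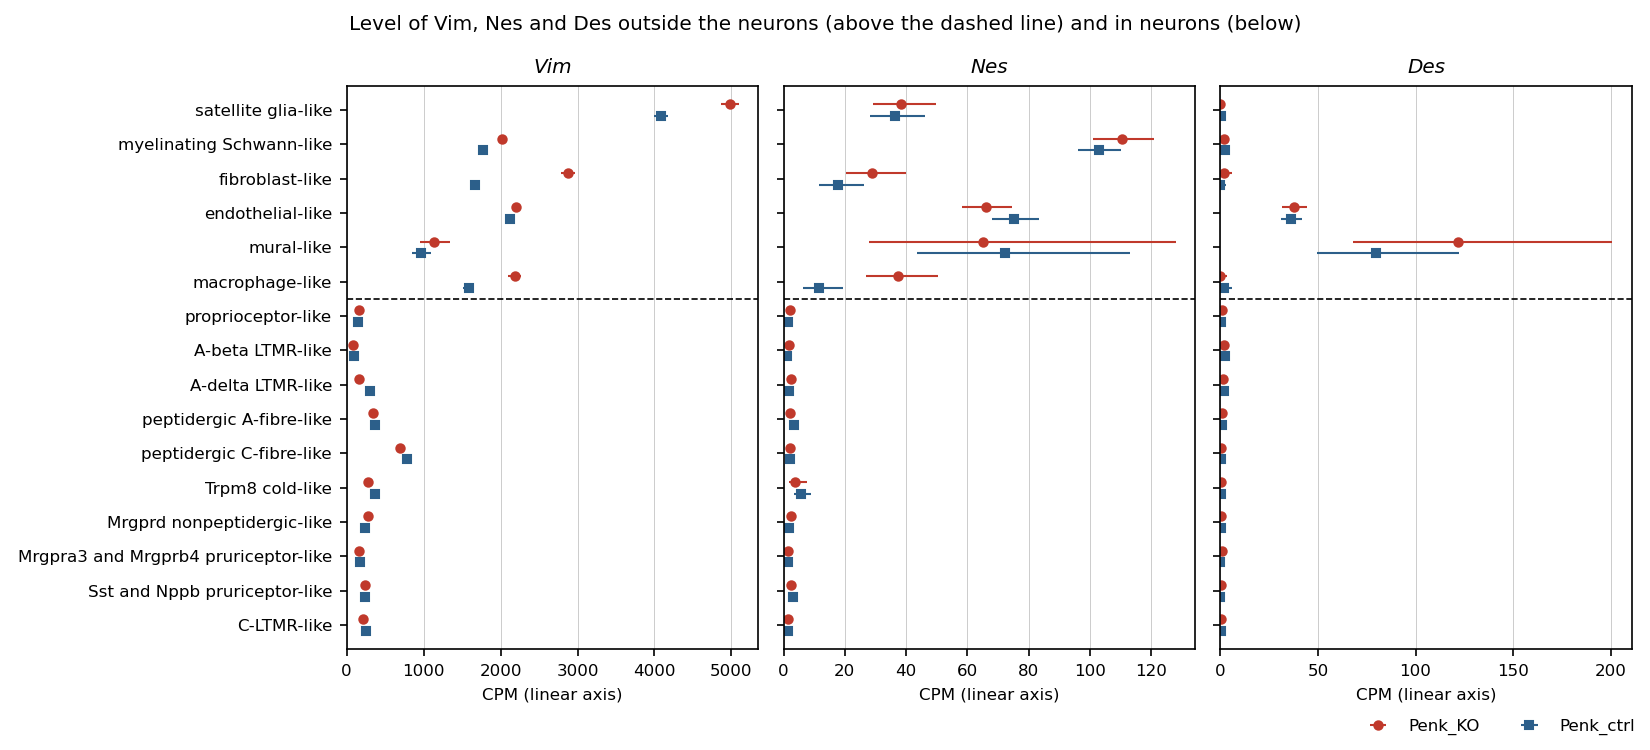
Level of Vim, Nes and Des in CPM (linear axis) in the 6 outside classes, above the dashed line, and in the 10 neuron subtypes, below it, with Penk_KO as circles over Penk_ctrl squares and bars for 95% counting intervals. Vim is highest in satellite glia-like cells (4982 and 4081 CPM), Nes in myelinating Schwann-like cells (111 and 103 CPM) and Des in mural-like cells (122 and 79.98 CPM), where few UMIs leave wide intervals.

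The genes most like each member were taken as the 5 with the highest Pearson correlation of log2(CPM + 5) over 34 points, the 17 named classes and subtypes of each library, among 11033 genes. The points share libraries and free RNA, and the values only describe likeness. For Nefl these were Glrb (r = 0.93), Endod1, Nat8l, Adam23 and Scn8a, a nodal sodium channel gene. For Nefm they were Lgi3 (0.96), Adam23, Epn3, Glrb and Hhatl, and for Nefh Lgi3 (0.98), Epn3, Hhatl, Coro6 and Adam23. For Prph they were L1cam (0.96), an adhesion molecule of axons, Cacnb3, Tubb2a, Dok4 and Gsr. Ina had no close match, with Tceal9 (0.71), Fam189a2, Camkk2, Kcnip2 and Rasgef1b. Vim was followed by the complement gene C4b (0.97), Slc39a1, Itgb8, Plpp3 and Sdc4. Nes was followed by Ctnna3 (0.97), Plekha4, Smtn and Cdc42ep1, and Des by Lmod1 (0.96), a smooth muscle gene, Tnfrsf19, Aoc3, Tmem200b and Tinagl1. Over the 10 neuron subtypes alone (20 points, 9086 genes) the closest were Gcsh to Nefl (0.96), Lgi3 to Nefm (0.97) and to Nefh (0.99), Klhdc10 to Ina (0.91) and Pex2 to Prph (0.98).

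Between genotypes the triplet genes and Prph differed little once subtypes were taken one by one, and Ina varied more. Summed over all neurons, Nefl had 5325 CPM in Penk_KO and 5717 CPM in Penk_ctrl, a ratio of 0.931 (0.929 to 0.934). Nefm had 2734 and 3054 CPM, a ratio of 0.895 (0.892 to 0.899), and Nefh had 2772 and 3275 CPM, a ratio of 0.846 (0.843 to 0.8498). Ina had 72.2 and 71.3 CPM, a ratio of 1.01 (0.986 to 1.04), and Prph had 2361 and 2253 CPM, a ratio of 1.05 (1.04 to 1.05). Vim, Nes and Des in neurons had ratios of 0.975, 0.946 and 0.883. A size step of 0.8 or its inverse was used to count genes. Of the 8 members 0 reached either step, where 1.95% of 12904 genes with at least 200 UMIs reached the upper and 3.26% the lower step. With each of the 10 subtypes given equal weight, the ratios became 1.03 for Nefl, 1.02 for Nefm, 0.973 for Nefh, 0.997 for Ina and 0.988 for Prph, and those of Nefl, Nefm, Ina and Prph turned to the other side of 1. An unnamed neuron cluster led by Pvalb, Apoe and Slc17a7, with 5049.7 and 5404 CPM of Nefh, held 6.15% of all UMIs of the Penk_KO library and 9.48% of those of the Penk_ctrl library.

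Subtype by subtype, Nefl ratios ran from 0.968 (A-beta LTMR-like) to 1.11 (peptidergic C-fibre-like) and were above 1 in 9 of 10 subtypes. The subtypes of a library are not independent, and the share of all genes above 1 in as many subtypes is not given. Nefm ratios ran from 0.908 to 1.07, Nefh ratios from 0.929 (A-beta LTMR-like) to 1.10 (peptidergic C-fibre-like) and Prph ratios from 0.948 to 1.06. The cluster that held most of a subtype differed between the libraries in 3 of them: in peptidergic A-fibre-like neurons (led by Htr3a, Trappc3l and Asic3 in Penk_KO, by Htr3a, Trappc3l and Apoe in Penk_ctrl), in proprioceptor-like neurons (a shallow cluster led by Pvalb, Clec2l and Slc17a7 in Penk_KO, one led by Pvalb, Spp1 and Clec2l in Penk_ctrl) and in Mrgprd nonpeptidergic-like neurons (led by Mrgprd, Grik1 and Ctxn3 in Penk_KO, by Mrgprd, Ctxn3 and Grik1 in Penk_ctrl). Of the 50 pairs of a neuronal member and a subtype, 47 had at least 200 UMIs, 0 reached the upper and 1 the lower step, where 1.81% and 3.57% of all pairs of a gene and a subtype did so. The 1 pair was Ina in peptidergic A-fibre-like neurons, with 5.85 CPM in Penk_KO from 117 UMIs and 8.52 CPM in Penk_ctrl from 324 UMIs, a ratio of 0.687 (0.551 to 0.851), where 4.79% of genes reached the lower step. The thinned share of these neurons with an Ina UMI was no higher than the larger of the macrophage-like and endothelial-like shares in either library. A cluster led by Htr3a, Trappc3l and Apoe held 15.8% of this subtype in Penk_KO and 36.2% in Penk_ctrl, and had 15.9 and 14.1 CPM of Ina, above the 2.25 to 3.26 CPM (Penk_KO) and 4.42 to 6.82 CPM (Penk_ctrl) of its other clusters. The part of this mix in the ratio was not tested. Outside the neurons Ina reached the upper step in myelinating Schwann-like cells (42.2 CPM against 32.2 CPM, ratio 1.31, 1.08 to 1.59), where 3.1% of genes did so, but with each cell weighted equally the ratio was 1.04.

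**Figure D5:**
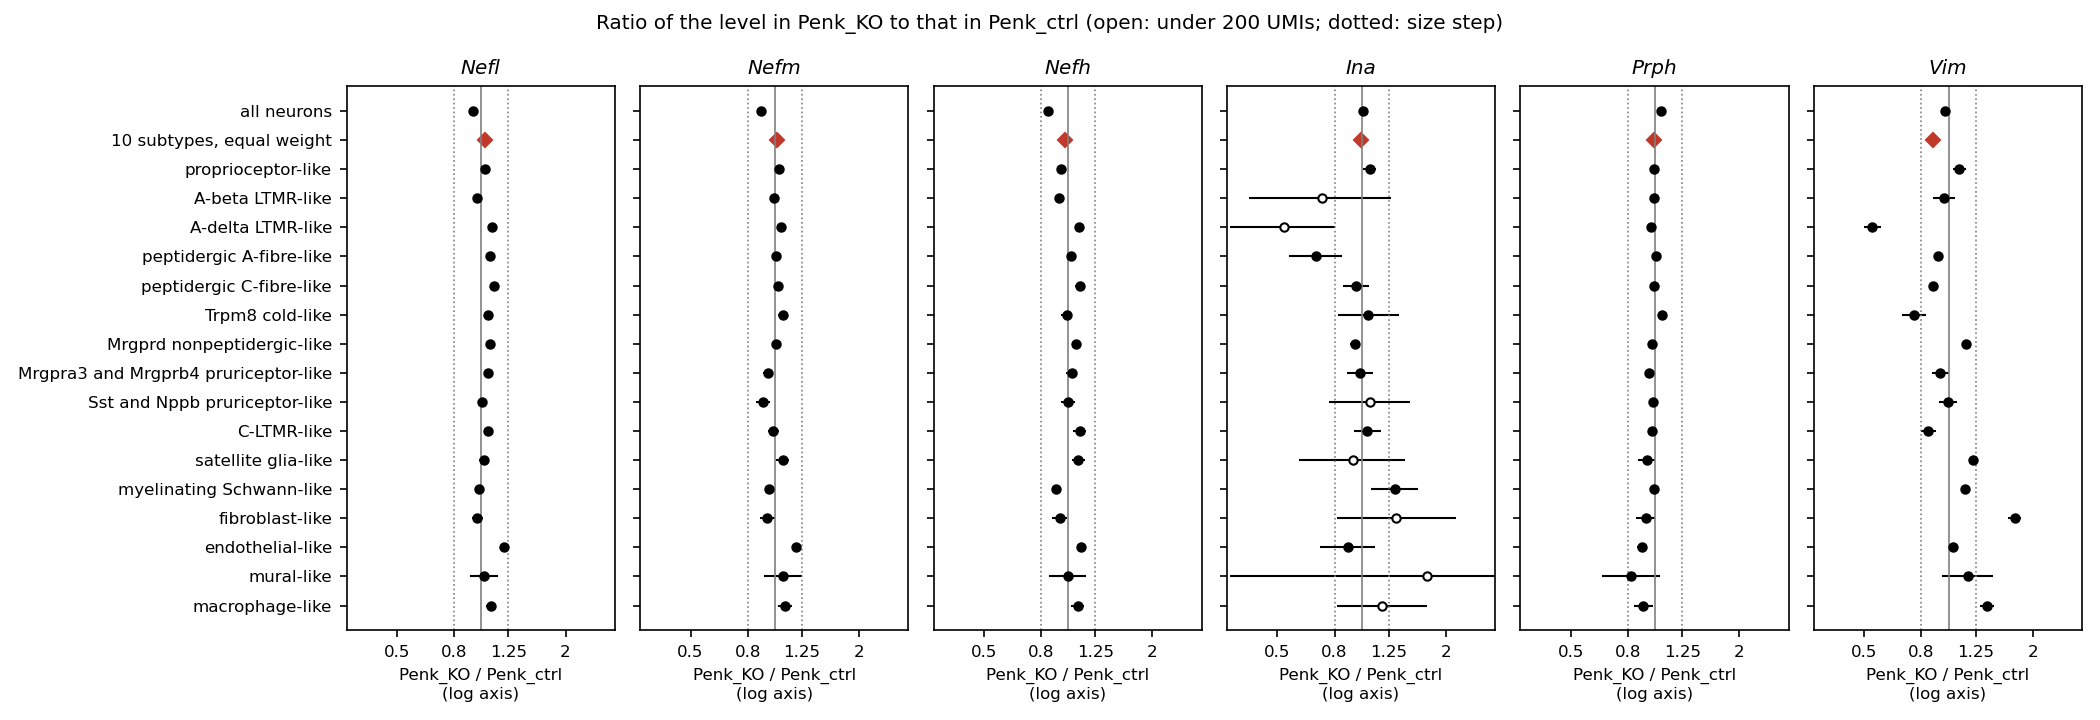
Ratio of the level in Penk_KO to that in Penk_ctrl (log axis) for 6 genes in all neurons, the 10 subtypes at equal weight (red diamond), each subtype and each outside class, with bars for 95% counting intervals, open points under 200 UMIs and dotted lines at 0.8 and its inverse. Triplet and Prph points stay between the dotted lines, whereas Vim lies beyond them in A-delta LTMR-like (0.534), Trpm8 cold-like (0.752), fibroblast-like (1.73) and macrophage-like (1.37) cells.

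Vim was the member with the most classes past the size step, 2 higher and 2 lower among 16 named classes. In all cells outside the neurons it had 3362 CPM in Penk_KO and 2780 CPM in Penk_ctrl, a ratio of 1.21 (1.20 to 1.22), and the ratio was above 1 in 6 of 6 compared classes. The classes of a library are not independent, and the share of all genes above 1 in as many classes is not given. The pooled ratio rests largely on the unnamed cluster led by Fabp7, Apoe and Bcan. It gave 66679 of the 101900 Vim UMIs outside the neurons in Penk_KO and 99243 of 141903 in Penk_ctrl. General neuron markers stood there at 61.0% and 64.1% of their neuronal level, at median depths of 9240 and 10524 UMIs. Fibroblast-like cells had 2876 CPM in Penk_KO and 1667 CPM in Penk_ctrl, a ratio of 1.73 (1.64 to 1.82), in a class where 7.69% of genes reached the upper step. The 10 fibroblast-like cells richest in Vim held 28.9% of the class's Vim UMIs in Penk_KO and 8.33% in Penk_ctrl, the median cell had 1577 and 1333 CPM, and each cell weighted equally gave a ratio of 1.28. The fibroblast markers of these cells had a ratio of 1.02, the myelinating Schwann markers 1.17, the meningeal markers 1.37 (553 and 403 CPM) and the macrophage markers 1.47 (240.5 and 163 CPM). The small meningeal-like cluster had 3230.4 and 3357 CPM of Vim. Satellite glia markers had a ratio of 0.913, endothelial 0.955 and mural 1.05, and their part in the result was not tested. Macrophage-like cells had 2182 and 1587 CPM, a ratio of 1.37 (1.29 to 1.46) against 6.25% of genes at the upper step, and 1.22 with each cell weighted equally. The 10 macrophage-like cells richest in Vim held 29.1% of its UMIs in Penk_KO and 14.98% in Penk_ctrl. Their macrophage markers had a ratio of 0.919, satellite glia markers 1.11, endothelial 1.17, myelinating Schwann 1.20, fibroblast 0.862, meningeal 1.02 and mural 0.607, and the part of these in the result was not tested. The unnamed clusters led by C4b, Cdh19 and Lgi4 (ratio 1.32, with 8.52% of genes) and by Fabp7, Apoe and Bcan (ratio 1.28, with 2.95% of genes) also passed the step, and satellite glia-like cells stood at 1.22.

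In 2 named neuron subtypes Vim reached the lower step in Penk_KO. A-delta LTMR-like neurons had 159 CPM in Penk_KO and 297 CPM in Penk_ctrl, a ratio of 0.534 (0.498 to 0.573), in a subtype where 6.59% of genes reached the lower step. The 10 neurons richest in Vim held 61.8% of its UMIs in Penk_KO and 64.7% in Penk_ctrl, the median neuron had 36.1 and 59.8 CPM, and the ratio was 0.982 with each neuron thinned to 500 UMIs. The satellite glia markers of the subtype had 1592 and 2149 CPM, a ratio of 0.741, and the endothelial markers a ratio of 0.982. Myelinating Schwann markers had a ratio of 1.10, fibroblast 1.02, meningeal 1.43, mural 1.40 and macrophage 1.29. The part of these in the Vim ratio was not tested. Trpm8 cold-like neurons had 280.0 and 372 CPM of Vim, a ratio of 0.752 (0.680 to 0.831) against 4.05% of genes. Their satellite glia markers had a ratio of 0.753, endothelial 0.657, fibroblast 0.855 and myelinating Schwann 0.875. Meningeal markers had 1.20, macrophage 1.29 and mural 1.35, and the part of these in the Vim ratio was not tested. The 10 Trpm8 cold-like neurons richest in Vim held 53.1% of its UMIs in Penk_KO and 45.7% in Penk_ctrl. C-LTMR-like and peptidergic C-fibre-like neurons had Vim ratios of 0.845 and 0.881, within the steps. The Trpm8 cold-like ratio turned to 1.05 when the cells with the highest doublet scores were removed. Mrgprd nonpeptidergic-like neurons had the highest ratio of the 10 subtypes, 1.16 (1.12 to 1.19), and proprioceptor-like neurons 1.09. The unnamed neuron cluster led by Pvalb, Apoe and Slc17a7 passed the upper step, with a Vim ratio of 1.34 (1.31 to 1.37), where 5.09% of genes did so. The one led by Pcp4l1, S100a16 and Pcp4 passed the lower step, with 0.737 (0.649 to 0.836), where 3.76% of genes did so.

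Other genes of the filament system were read in neurons by lists, against the 1.95% of all genes that reached the upper and the 3.26% that reached the lower step there. Among the motors that carry filaments along axons, 12 of 12 had at least 200 UMIs, 0 passed either step and their median ratio was 0.981, with Klc1 at 0.987, Dync1h1 at 0.968 and Kif1a at 0.998. Of 16 genes of axonal microtubules 0 passed, with a median of 1.02, and of the 17 measured genes of filament turnover, kinases and chaperones 0 passed, with a median of 0.980. Lamins and their partners (10 genes, 0 passed) had a median of 0.977, and the 6 binders of neurofilament mRNA, which include Tardbp (1.14), had a median of 1.04 and 0 passed. Among the linkers of the plakin family and desmosome, 7 of 8 had enough UMIs and 1 was lower: Evpl, the envoplakin gene, with 77 UMIs in Penk_KO and 180 in Penk_ctrl and a ratio of 0.706. Of 17 other cytoplasmic filament genes, 4 had enough UMIs and 0 passed, with Synm, a large filament partner, at 0.987. The median over all 12904 genes was 0.997. Within the lists, the microtubule genes Map2 (21.5-fold in Penk_KO, 25.2-fold in Penk_ctrl) and Tuba4a (20.3-fold and 25.5-fold) were higher in proprioceptor-like than in Mrgprd nonpeptidergic-like neurons, as Nefh was, and Tubb2b was lower there (0.0277 and 0.0373 of the Mrgprd nonpeptidergic-like level).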

How the data were processed

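Counts are the authors' deposited UMI counts per gene and barcode, raw and not normalized, 1 matrix per library. Reads were aligned to GRCm39 with Cell Ranger 7.0 per the labels' protocols, whereas the matrix headers name version 8.0.1; the submitters' processing notes also list Seurat without saying for what. Genes are read by probe pairs, so a UMI is a ligated probe pair.

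The cell filter asked for 500 UMIs and 300 genes (12053 Penk_KO, 15690 Penk_ctrl barcodes passed). Both libraries were clustered together in scanpy 1.11.5 on 3000 variable genes with the 8 genes left out, 40 components, 15 neighbours and Leiden resolution 1, and neurons were clustered again. Clusters were named "-like" from marker lists, with a best score of at least 1 and at least 3 markers 2-fold up. The best score had to be 0.2 above the next unless enough own markers were among the cluster's leading genes. With all cells clustered, this lead was not asked between neuron subtypes. Clusters led by a globin gene, by more markers of another type, or with under 50 cells stayed unnamed. The limits were set after clusters were seen, so a difference from other names for these cells may come from the naming. No doublets were removed: Scrublet marked 5386 barcodes (44.7%) in Penk_KO and 0 in Penk_ctrl and so did not work, and the alternative took out the highest scores by the estimated multiplet share (1790 and 3474 barcodes). UMIs were summed per library and class to counts per 1000000 UMIs (CPM), with exact Poisson intervals for levels, conditional binomial intervals for ratios and Clopper-Pearson intervals for shares. A class needed 100 cells per library to enter a comparison, and a gene was counted past the size step at a ratio of 0.8 or less, or its inverse or more, with at least 200 UMIs over both libraries. PCR copies are removed by UMIs, and intervals cover counting error only.

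The 8 genes are always named. Like genes are the 5 with the highest correlation per gene (a few items that these rules select are not reported here), and from the other lists those past the step or with the most UMIs are named; Tardbp, Map2, Tuba4a, Tubb2b and the single clusters described were chosen after their values were seen. The genes and lists were chosen with earlier results of these data known. Promoter windows were read from the GRCm39 genome at GENCODE transcript starts. The versions were matplotlib 3.10.9, igraph 0.11.9, pandas 2.3.3, scikit-learn 1.9.0, scipy 1.17.1, numpy 2.4.6, anndata 0.12.19 and Python 3.11.15. The ratios, their intervals and the size step were tested on simulated counts, and the other intervals were not.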

Additional observations from a re-analysis of the deposited data

How the results depend on the processing

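No paired analysis was possible because each genotype is 1 library. The neuron ratios of Penk_KO to Penk_ctrl were, in the order Nefl, Nefm, Nefh, Ina, Prph, 0.951, 0.910, 0.859, 0.978 and 1.02 with the 8 genes kept in the clustering, and 0.917, 0.886, 0.806, 0.950 and 1.06 after leaving out droplet barcodes seen in both libraries. They were 1.05, 1.02, 1.01, 0.909 and 0.970 with cells thinned to 500 UMIs. With each cell weighted equally Nefl, Nefm, Nefh and Prph gave 1.05, 1.02, 0.991 and 0.991, and with subtypes weighted equally 1.03, 1.02, 0.973 and 0.988. Without the highest doublet scores Nefl, Nefh and Ina gave 0.923, 0.841 and 0.966, and in neurons with at least 5000 UMIs, an alternative chosen after seeing the data, Nefl, Nefm and Nefh gave 0.928, 0.891 and 0.841. Scaling by the median of gene-wise ratios gave 0.934 for Nefl. The side of 1 is therefore not fixed for any of the 5 genes, and the cause was not tested. Genes past the size step numbered 673 of 12904, 660 with the median scaling and 2488 of 16039 with no minimum of UMIs, and the members past it were 0 in each.

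Vim in fibroblast-like cells stayed at 1.2504 to 1.82 under every alternative run and in macrophage-like cells at 1.21 to 1.45. Vim in A-delta LTMR-like neurons ranged over 0.433 to 0.982, and in Trpm8 cold-like neurons over 0.486 to 1.05, turning to 1.05 without the highest doublet scores and reaching 0.965 without droplet barcodes seen in both libraries. Ina in peptidergic A-fibre-like neurons ranged over 0.327 to 0.768 and in myelinating Schwann-like cells over 1.04 to 1.31. Over 6 alternatives the subtype with the highest level was the same in all 6 for Nefl, Nefh, Ina and Prph in both libraries, and for Nefm in 5 in Penk_KO and 6 in Penk_ctrl; for Nefm in Penk_KO the exception was proprioceptor-like neurons. For Vim the same count was 5 in Penk_KO and 4 in Penk_ctrl, for Nes 5 and 5, and for Des 5 and 4. Ina was the member with the fewest UMIs in neurons, apart from Nes and Des, so its low values rest on few counts.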

Other observations

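Within the C-LTMR-like and peptidergic C-fibre-like neurons, clusters that differed in depth also differed in the triplet. The shallow C-LTMR-like cluster led by Th, P2ry1 and Rarres1 (median depths of 1802 UMIs in Penk_KO and 1587 in Penk_ctrl) had 761 and 628 CPM of Nefh, against 315 and 293 CPM in the deep cluster led by Th, Tafa4 and P2ry1 (31911 and 31729 UMIs). The shallow peptidergic C-fibre-like cluster led by Gpx3, Gfra3 and Adcyap1 (1159.5 and 1221.5 UMIs) had 1099 and 1057 CPM of Nefh, against 437 and 441 CPM in a deep cluster led by Gpx3, Adcyap1 and Gfra3. Peptidergic C-fibre-like neurons had the lowest ratio of Nefh in the deepest to the shallowest tertile of any subtype, 0.347 in Penk_KO and 0.342 in Penk_ctrl. The part of free RNA in these values was not tested.

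A small peptidergic C-fibre-like cluster led by Gfra3, Gpx3 and Trpv1, with 29 Penk_KO and 31 Penk_ctrl cells, had 179 and 164 CPM of Ina, against 46.9 to 80.8 CPM in the other clusters of the subtype over both libraries. Among the Mrgprd nonpeptidergic-like neurons, a cluster of 286 Penk_KO and 219 Penk_ctrl cells with median depths of 5712.5 and 10516 UMIs had 798 and 752 CPM of Vim, against 80.03 to 250.1 CPM in the other 4 clusters over both libraries. That cluster held 29.0% of the subtype in Penk_KO and 18.4% in Penk_ctrl.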
